A study of Mus musculus with 5 samples.

Results

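Kidney tubules take filtered amino acids back from the tubular fluid through a set of membrane carriers, and 10 of their genes were followed here cell by cell: Slc6a19, Slc6a18, Slc6a20b, Slc1a1, Slc3a1, Slc7a9, Slc7a13, Slc3a2, Slc7a7 and Slc7a8. They were picked by gene symbol, and all 10 were found among the 32285 genes of the deposited table. The data are droplet-based 3′ single-cell RNA-seq counts from mouse kidney after unilateral ischemia-reperfusion (UIR), a model of acute kidney injury (AKI). The mice were male C57BL/6J, aged 6 to 8 weeks, and in UIR the left renal pedicle was clipped for a time and then released. Sham mice had the same surgery without the clip. The labels name 5 groups, Sham and AKI at day 1, day 3, day 14 and day 28, with 1 sample each and every kidney sample made from 3 mice. The methods speak of more matrices than the 5 libraries of the deposited table, and how many mice stand behind a library is therefore uncertain. No group carried a transgene or a drug treatment as far as the labels say.

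The proximal tubule, in which most filtered amino acids are recovered, runs from the S1 segment next to the glomerulus through S2 to S3. Carriers of the luminal brush border take amino acids up from the filtrate, and carriers of the basolateral membrane pass them on to the blood. Slc6a19 (B0AT1) and Slc6a18 (B0AT3) are sodium-coupled luminal carriers of neutral amino acids that need the accessory protein collectrin, encoded by Cltrn, and loss of SLC6A19 function causes Hartnup disorder in man. Slc3a1 encodes rBAT, a heavy chain that brings a light chain to the luminal membrane: Slc7a9 (b0,+AT), the cystine and dibasic amino acid carrier affected with it in cystinuria, or Slc7a13 (AGT1). Slc3a2 encodes 4F2hc (CD98), the heavy chain of the basolateral exchangers Slc7a7 (y+LAT1) and Slc7a8 (LAT2). Slc1a1 encodes the luminal glutamate and aspartate carrier EAAT3, and Slc6a20b belongs to the imino acid (proline) carriers.

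Nothing in the labels ties the 5 libraries, told apart by the number at the end of each barcode, to the 5 groups, so the libraries are called 1 to 5 and are treated as 1 pooled sample without tests. Intervals are exact 95% intervals for counting error only, and cells of a library are not replicates. After cell calling and filtering, 57511 cells with a median of 4624 unique molecular identifiers (UMIs, counted transcripts) were kept, 8234 to 18905 per library. Of these, 699 (1.22%) carried a barcode also kept in another library. The labels call the cells goblet cells, but over all kept cells the goblet cell genes Muc2, Clca1, Zg16, Fcgbp and Spink4 held 21, 2, 0, 41 and 37 UMIs. Marker genes, none of them a transporter of the set, gated 44747 cells (77.8%) as proximal tubule, with 11268 in S1, 4639 in S2, 6112 in S3 and 22728 between segments. The S1 gate was led by Slc5a2 and Slc5a12, the S2 gate by Cyp2e1 and Slc22a6 and the S3 gate by Slc22a7 and Cyp7b1, with 3, 4 and 1 of the segment's own markers among its 10 leading genes. The cut on the proximal tubule marker share had 1712 proximal tubule cells just inside it and 1353 unnamed cells just outside. Library 3 stood apart, with 190 S3 cells (1.46% of its proximal tubule cells, against 6.31% to 26.3% in the others).

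In the GENCODE vM21 annotation of the GRCm38 build, Slc6a19 (chr13:73679745-73704865) and Slc6a18 (chr13:73661752-73678023) lie 1722 bases apart on the minus strand. Slc7a7 (chr14:54369442-54417780) and Slc7a8 (chr14:54722209-54781946) share that strand on chromosome 14, 304429 bases apart. Slc3a1 (chr17:85028376-85064236) and Slc1a1 (chr19:28835049-28913960) are on the plus strand, as are Slc7a9 (chr7:35448796-35466036) and Slc7a13 (chr4:19818725-19842218), while Slc3a2 (chr19:8706882-8723369) and Slc6a20b (chr9:123590800-123632565) are on the minus strand. Exons of Slc3a1, Slc7a7, Slc6a20b and Slc1a1 overlap exons of a gene on the opposite strand (Prepl, Oxa1l, Sacm1l and 4430402I18Rik). Slc6a20b lies 2205 bases from its paralogue Slc6a20a, so reads shared by both could have been split or dropped. RefSeq promoter sequences (GRCm38.p6) were at hand for 8 of the 10 genes. The 250 bases before the transcription start are shown for Slc3a1 (chr17:85028097-85028346, plus strand) and Slc6a19 (chr13:73692637-73692886, minus strand), which lay at opposite ends of the proximal tubule in these cells and whose windows overlap no annotated exon. The RefSeq start used for Slc6a19 lies inside the gene's GENCODE span and not at its 5′ end. Capitals mark matches on either strand to an HNF4A-type motif (CAAAGTCCA or CAAAGTTCA), an HNF1-type core (GTTAAT) or a TATA box (TATAAA).
Slc3a1: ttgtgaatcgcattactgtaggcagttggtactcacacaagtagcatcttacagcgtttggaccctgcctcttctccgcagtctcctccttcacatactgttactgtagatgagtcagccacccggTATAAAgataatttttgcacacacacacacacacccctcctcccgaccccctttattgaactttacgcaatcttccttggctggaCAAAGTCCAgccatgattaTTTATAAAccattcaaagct
Slc6a19: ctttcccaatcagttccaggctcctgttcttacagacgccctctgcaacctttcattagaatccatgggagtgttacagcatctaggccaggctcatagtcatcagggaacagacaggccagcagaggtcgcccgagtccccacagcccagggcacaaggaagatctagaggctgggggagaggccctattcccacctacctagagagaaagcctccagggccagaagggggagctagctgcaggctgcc
The Slc3a1 window held the HNF4A-type match CAAAGTCCA 39 to 31 bases before the start, a motif present in 0.715% of 32851 promoter windows of this length. It also held TATAAA in 3 places, of which the matches at bases 20 to 15 and 18 to 13 before the start overlap on opposite strands. A TATA box match was present in 12.4% of the windows and an HNF1-type core in 6.43%. The Slc6a19 window held none of these letters.

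Along the proximal tubule the 10 genes fell into 5 that were higher in S1 and 5 that were higher in S3, each by at least 1.5-fold in CPM (UMIs of the gene per 1e6 UMIs of the cells). Among 7499 genes tested in the same way, 16.8% were at least 1.5-fold higher in S1 and 8.68% at least 1.5-fold higher in S3, with a median log2 ratio of S1 over S3 of 0.16. Over pooled libraries, all 5 genes of the S1 side fell from S1 to S2 and again to S3, and all 5 of the S3 side rose in both steps, although Slc3a1 was highest in S2 in libraries 3 and 4, and Slc1a1 and Slc6a20b in library 3. The basolateral exchanger genes and their heavy chain were on the S1 side, and the luminal carriers were found on both.

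**Figure D1:**
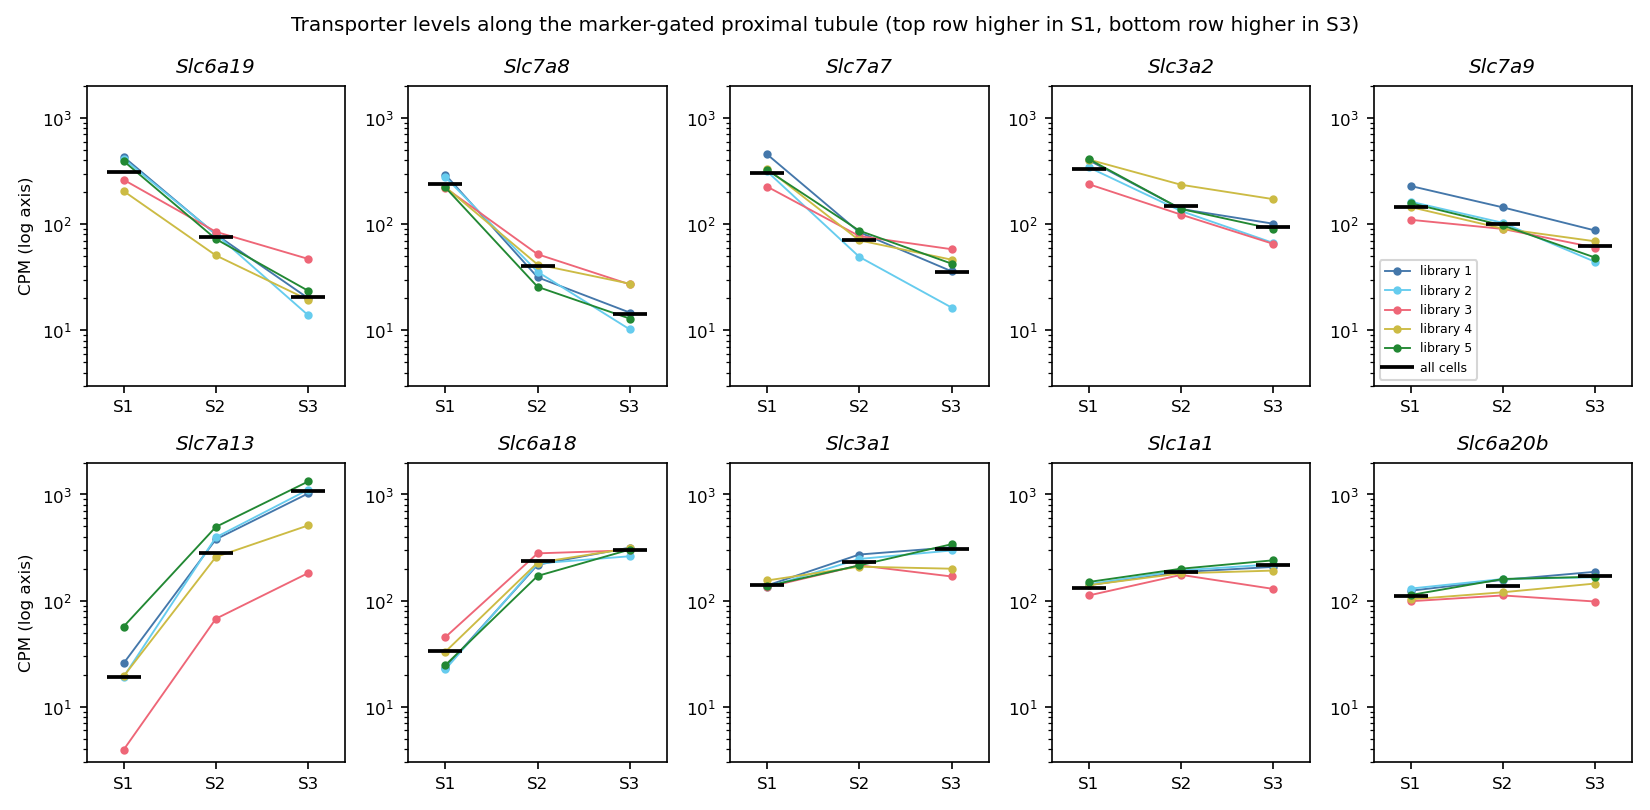
Level of each transporter gene in S1, S2 and S3 cells, in CPM on a log axis, for each of the 5 libraries (coloured points and lines) and for all cells pooled (black bars). The genes of the upper row fell from S1 to S3 in every library, Slc7a13 and Slc6a18 rose in every library, and Slc6a20b in library 3 was level between S1 and S3 (98.8 and 98.2 CPM).

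Slc6a19, the main luminal carrier of neutral amino acids, had 309 CPM in S1 (interval 305 to 313), 75.5 in S2 and 20.6 in S3. The S1 level was thus 15-fold that of S3 (log2 ratio 3.90, 3.81 to 4.00). The log2 ratio was 3.17 in cells thinned to 1000 UMIs and 4.52 with a stricter segment margin. In S1 it stood at 431, 413, 262, 205 and 393 CPM in libraries 1 to 5, and in S3 at 20.1, 13.9, 47.1, 19.4 and 23.6. The lowest S1 library was therefore above the highest S3 library. The basolateral exchanger gene Slc7a8 fell about as steeply, from 239 CPM in S1 through 40 in S2 to 14.4 in S3, a 16.5-fold ratio (log2 4.05, 3.93 to 4.17). Its S1 levels in libraries 1 to 5 were 293, 278, 220, 224 and 222 CPM, and its S3 levels 14.7, 10.2, 27.1, 27.5 and 12.9. Slc7a7, the exchanger that releases dibasic amino acids to the blood, fell in the same order from 302 CPM in S1 to 70.4 in S2 and 35.6 in S3 (log2 ratio 3.09, 3.01 to 3.16). Their shared heavy chain gene Slc3a2 fell less, from 333 CPM in S1 to 149 in S2 and 94.8 in S3, which is 3.52-fold. Slc7a9, the cystine carrier, had the flattest slope on this side, at 146, 100 and 62.5 CPM, a 2.33-fold ratio that ranged from 1.83-fold in library 3 to 3.68-fold in library 2.

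Slc7a13, the light chain found with rBAT late in the tubule, showed the largest ratio of the set: 19 CPM in S1, 282 in S2 and 1088 in S3, or 57.4-fold higher in S3 than in S1 (log2 ratio of S1 over S3 -5.84, -5.92 to -5.76). The S3 level in libraries 1 to 5 was 1022, 1109, 182, 511 and 1325 CPM, and the S1 level 25.7, 19.2, 3.94, 19.4 and 57. Within libraries 1 to 5 the ratio was 39.8-fold, 57.8-fold, 46.3-fold, 26.4-fold and 23.2-fold, so the pooled value lay near the top of them. The pooled log2 ratio was -5.18 without library 3, -6.51 without cells marked as doublets and -6.83 with a stricter segment margin. With every cell thinned to 1000 UMIs, 53.9% of S3 cells and 1.64% of S1 cells had a Slc7a13 UMI. Before thinning the shares were 84.2% and 6.98%.

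Slc6a18, the other neutral amino acid carrier of this family, ran opposite to its genomic neighbour Slc6a19. Slc6a18 had 33.6 CPM in S1, 234 in S2 and 299 in S3, which is 8.9-fold higher in S3. In the libraries 1 to 5 it stood at 316, 262, 298, 311 and 303 CPM in S3 and at 23.4, 22.5, 45.3, 33 and 24.7 in S1. Most of its rise lay between S1 and S2, whereas Slc7a13 still rose steeply from S2 to S3. The heavy chain gene Slc3a1 rose from 140 CPM in S1 to 229 in S2 and 309 in S3 (2.21-fold), with within-library ratios of 2.29-fold, 2.21-fold, 1.27-fold, 1.29-fold and 2.48-fold. Slc1a1 rose from 132 to 186 and 218 CPM (1.66-fold), and Slc6a20b from 110 to 138 and 170 CPM (1.55-fold). These last ratios were small and passed 1.5-fold in fewer libraries: of the 5 genes of the S3 side, 4 passed in libraries 1, 2 and 5 and 2 passed in libraries 3 and 4, while all 5 of the S1 side passed in every library. In libraries 1 to 5, 14.4%, 21.8%, 25.5%, 10.4% and 15% of all genes tested passed towards S1, and 9.35%, 9%, 8.07%, 6.51% and 10.7% towards S3. The ratio for Slc6a20b was below 1.5-fold without library 1 (log2 -0.58), without library 3 (-0.54), with the mean of each cell's CPM (-0.43) and in cells thinned to 1000 UMIs (-0.29).

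Because the partners of a heavy chain sloped differently, their UMI ratios changed along the tubule. Ratios of UMIs between genes depend on how well each 3′ end is captured, so only their change between segments is given. For each Slc7a9 UMI there were 0.959 Slc3a1 UMIs in S1 (0.932 to 0.986), 2.28 in S2 and 4.94 in S3 (4.74 to 5.15). For each Slc7a13 UMI the count of Slc3a1 UMIs went the other way, from 7.37 in S1 to 0.81 in S2 and 0.284 in S3. Among the light chains of rBAT the balance thus moved from Slc7a9 towards Slc7a13 along the tubule, and the ratio of Slc7a9 to Slc7a13 fell in every library. In library 3 there were 0.929 Slc3a1 UMIs per Slc7a13 UMI in S3, against 0.257 to 0.391 in the others. On the basolateral side, Slc3a2 UMIs per UMI of Slc7a7 and Slc7a8 together rose from 0.616 in S1 to 1.35 in S2 and 1.9 in S3. Slc6a19 UMIs per Slc6a18 UMI fell from 9.19 in S1 to 0.323 in S2 and 0.069 in S3. Their accessory gene Cltrn changed much less, at 1335 CPM in S1, 1152 in S2 and 952 in S3.

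Within a segment, partner genes were compared in the same cells after thinning every cell to 1000 UMIs. In S3, 62.3% of cells with a Slc3a1 UMI (59.7 to 64.8) and 51.3% of cells without (49.9 to 52.8) had a Slc7a13 UMI. The shares for this pair were 21% and 19.5% in S2 and 2.18% and 1.56% in S1, with intervals that overlap in both. In S1, 28.1% of cells with a Slc3a2 UMI and 23.9% of those without had a Slc7a7 UMI, while in S2 the shares were 6.24% and 6.46%. For Slc3a1 and Slc7a9 in S1 the shares were 14.5% and 13.6%, with intervals that overlap. Slc6a18 was seen in 13.9% of S2 cells with a Slc6a19 UMI (10.2 to 18.2) and in 20.1% of those without (18.9 to 21.4), in S1 in 2.14% and 3.2%, and in S3 in 22.6% and 23.2%. Libraries and the remaining spread along the tubule were not held fixed in these shares, and their part was not tested.

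Over all 18 classes with at least 20 cells, 8 of the 10 genes had their highest level in a proximal tubule class, against 12.4% of 13046 genes with at least 10 CPM in their highest class. In the smallest classes few UMIs reach that cut, since 3 UMIs are 10.8 CPM in thin limb and 47.5 CPM in erythroid cells. The part of such counts in the 12.4% was not tested. The 10 genes were chosen as tubular carriers, and classes outside the proximal tubule had to be low in proximal tubule markers. A high count in proximal tubule classes was thus partly set in advance, and the 12.4% is given for scale only. Droplets also catch free RNA, so each level is set beside the level that the free RNA of the same libraries would give if it accounted for all proximal tubule marker UMIs of the class. Slc6a19, Slc7a9 and Slc6a20b were below 2 times that level in each of the 13 classes outside the proximal tubule, erythroid cells left aside. Slc3a1 reached 3.05 times it in the thin limb class and less than 2 times in the rest. Slc7a13 reached 2.51 times it in connecting tubule (CNT) cells, at 17.3 CPM, and its level there was 141 CPM in library 5 and 4.75 to 7.27 CPM in libraries 1, 2 and 3.

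**Figure D2:**
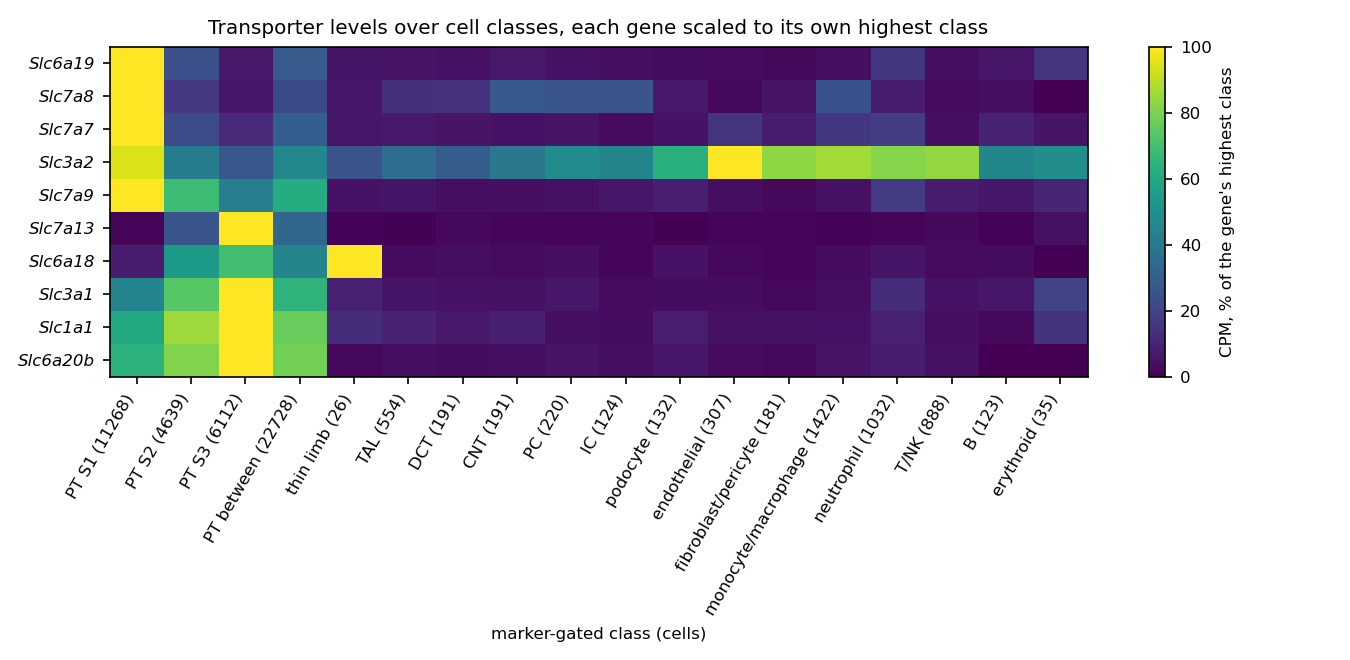
Level of each transporter gene (rows) in each gated class (columns, with the number of cells), as a percentage of the gene's own highest class. The proximal tubule columns carry the high values of 8 genes, Slc3a2 is also high in endothelial and immune cells, and Slc6a18 peaks in the thin limb class of 26 cells.

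The heavy chain gene Slc3a2 was the exception, above the free-RNA level in all 13 classes. It had 351 CPM in endothelial cells (324 to 379), against 333 in S1 (329 to 338), and these intervals overlap. It had 303 CPM in monocyte/macrophage cells, 294 in T/NK cells, 292 in fibroblast/pericyte cells and 287 in neutrophils, where free RNA would give 7.99 to 40.1 CPM. Neither Slc7a7 nor Slc7a8 was as high outside the proximal tubule. Slc7a8 was found at 67 CPM in CNT cells (54.1 to 82.1), 63 in intercalated cells, 62.7 in principal cells and 60.6 in monocyte/macrophage cells, against free-RNA levels of 6.81 to 9.78 CPM. These levels exceed those of S2 and S3 cells for the same gene (40 and 14.4 CPM). CNT markers summed to 9923 CPM in the intercalated class, beside 6634 CPM of intercalated cell markers. In the principal cell class they summed to 2789 CPM, beside 7905 CPM of its own markers, so these classes were not cleanly separated. Slc7a7 had 48.9 CPM in monocyte/macrophage cells (43.9 to 54.4) and 46.7 in endothelial cells (37.3 to 57.8), where free RNA would give 15.9 and 13.1 CPM. In fibroblast/pericyte cells it had 23.9 CPM (17.8 to 31.4), against a free-RNA level of 6.44 CPM, the highest ratio of the 3 classes at 2 times or more. Its 52.9 CPM in neutrophils stood against a free-RNA level of 36.6 CPM. Slc1a1 was at least 2 times the free-RNA level in 5 classes, with 28.9 CPM in thin limb cells (12.5 to 56.9), 20.8 in thick ascending limb (TAL), 19.5 in CNT, 18.4 in podocyte and 9.38 in fibroblast/pericyte cells, where free RNA would give 4.45 to 8.93 CPM. The podocyte value rests on 9 UMIs (8.42 to 35), and 106 of the 132 podocyte cells came from library 2. In that class endothelial and erythroid markers summed to 2540 and 3171 CPM, beside 5905 CPM of podocyte markers.

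The thin limb class rested on 26 cells, 17 of them from library 3. Slc6a18 reached 429 CPM in it (356 to 514), above its 299 CPM in S3, where free RNA would give 6.74 CPM. Of its 119 Slc6a18 UMIs, 75 came from 3 cells, all of which carried Havcr1 UMIs, and 16 of the 26 cells had at least 1. Havcr1 itself stood at 404 CPM in this class. The class was led by Fst, Ankrd1, Slc14a2 and Bst1, and its 8 proximal tubule markers summed to 668 CPM against 14653 in S3. Because so few cells carry the value, it describes these cells only.

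Over the 18 classes, the genes whose log2(CPM + 1) ran most like each transporter are given as a description, since classes share libraries and free RNA. Slc6a19 ran closest to Spp2, Slc4a4 and Slc5a2 (Pearson r 0.93, 0.90 and 0.90), of which Slc4a4 and Slc5a2, the basolateral bicarbonate and the early glucose carrier, were S1 gate markers. Slc7a13 ran closest to Kap, the androgen-regulated kidney protein, Acy3, an S3 gate marker, and Gm48281 (r 0.95, 0.94 and 0.94). Slc3a1 ran with AI314278, Cda and Slc27a2 (0.99, 0.98 and 0.97), and Slc1a1 with Slc23a1, Slc27a2 and Thnsl2 (0.96 each). Slc7a9 ran with Glyat, Pdzk1 and Espn (0.97 each), Slc6a20b with Vnn1, Slc16a4 and A1cf (0.97 each), and Slc6a18 with Slc13a2, Gclm and Gm15638 (0.92, 0.92 and 0.90). Slc7a7 and Slc7a8 had looser neighbours, led by Tfpi2 (0.87) and Acaa1a (0.87). Slc3a2 had the loosest, led by Dhx58 (0.77).

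Havcr1 encodes KIM-1, a surface protein that injured proximal tubule cells make. A Havcr1 UMI was seen in 3205 proximal tubule cells (7.16%, 6.93 to 7.41), and 41542 had none. By library the Havcr1-bearing cells numbered 150, 391, 2288, 343 and 33, so 71.4% came from library 3, where 17.5% of proximal tubule cells were bearing. The same gene is known as Tim1 in T and B cells, so neutrophils and monocyte/macrophage cells were taken as the cells that should lack it. A Havcr1 UMI was seen in 0.3%, 0.732%, 5.41%, 0% and 0% of them in libraries 1 to 5, where proximal tubule cells had 1.94%, 4.73%, 17.5%, 4.69% and 0.394%. Median depths were 2214.5 UMIs in these and 5121 in proximal tubule cells, and the intervals for a share of 0 reach 1.19% in library 4 (307 cells) and 6.85% in library 5 (52 cells). Among other classes the share ran from 0.552% of fibroblast/pericyte cells to 8.3% of TAL cells, and was 38.5% of the 26 thin limb cells. Free RNA held 3.71, 23.4, 93.1, 12.6 and 0.636 CPM of Havcr1 in libraries 1 to 5 and proximal tubule cells 6.86, 19.6, 56, 11.4 and 0.708, so in libraries 2, 3 and 4 the cells were below the free RNA. Its part in the gate was not tested. Bearing cells were deeper (median 7135 against 4966 UMIs) and more often marked as doublets (22.2% against 9.4%). A further 918 Havcr1-bearing cells lay outside the proximal tubule gate, 678 of them in no class.

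Taking all libraries together, 9 of the 10 genes were lower in Havcr1-bearing cells, with a median log2 ratio of -0.26 against 0.03 over all 7422 genes tested. Of the 10, 1 was at least 1.5-fold lower, against a background of 2.05%, and 0 were at least 1.5-fold higher, against 3.23%. That gene was Slc7a13, with 165 CPM in bearing and 403 CPM in free cells (log2 -1.29, -1.33 to -1.24). Without library 3 the value was -0.37. Within libraries 1 to 5 Slc7a13 had log2 ratios of -0.27, -0.35, 0.58, 0.28 and 1.14, lower in bearing cells of libraries 1 and 2 and higher in those of libraries 3, 4 and 5. In library 3, bearing cells had 45.1 CPM and free cells 30.1.

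**Figure D3:**
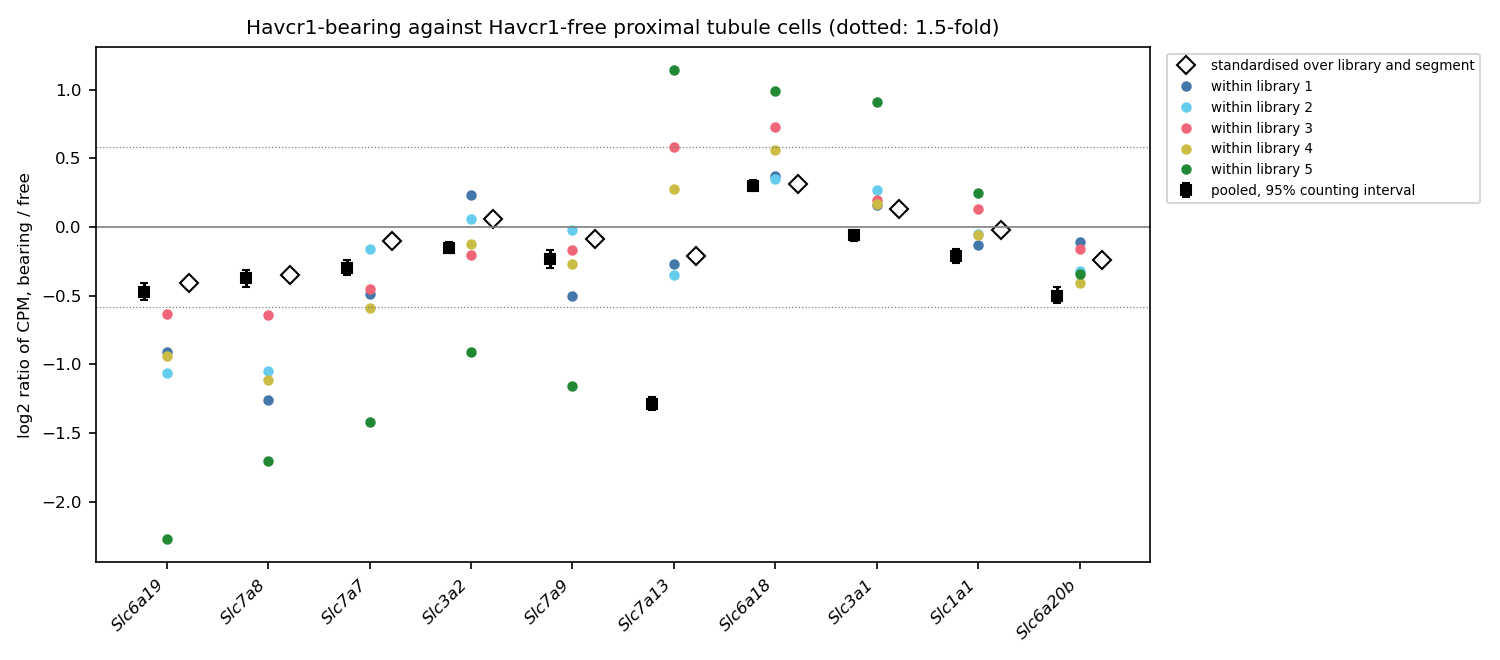
Ratio of each gene's level in Havcr1-bearing over Havcr1-free proximal tubule cells on the log2 scale, pooled (black squares, with 95% counting intervals), within each library (coloured points) and standardised over library and segment (open diamonds); dotted lines mark 1.5-fold. The pooled value of Slc7a13 (-1.29) lies below each of its within-library values, Slc6a19 and Slc7a8 lie below 0 in each library, and Slc6a18 lies above 0 in each.

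To compare like with like, bearing cells were set against free cells of the same library and segment over 17 strata holding 3199 bearing cells. So standardised, 0 of 10 genes were at least 1.5-fold lower (background 0.175% of 7408 genes) and 0 at least 1.5-fold higher (background 0.945%). Of the 10 genes, 7 were lower by any amount, with a median log2 ratio of -0.09 against 0.00 over all genes tested. Slc7a13 then stood at -0.21. For reference, the general proximal tubule list had a median of -0.19. The injury list had a median of 0.49 over 9 genes, led by the adhesion molecule Vcam1 (2.95), the transcription factor Sox9 (1.69) and the keratin Krt20 (1.08). Clu (-0.32), Krt18 (-0.38) and Lcn2 (-0.45) were lower in bearing cells when standardised. In the pooled comparison Clu, Krt18 and Lcn2 were higher in bearing cells, at log2 1.07, 0.20 and 0.98.

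Within libraries 1 to 5, 2, 2, 2, 3 and 5 of the 10 genes were at least 1.5-fold lower in bearing cells, against 4.3%, 2.4%, 0.794%, 2.71% and 27.3% of all genes tested. At least 1.5-fold higher were 0, 0, 1, 0 and 3 genes, against 5.07%, 5.33%, 0.729%, 2.42% and 9.38%. Slc6a19 and Slc7a8 were among the lower genes in all 5 libraries. Library 5 had only 33 bearing cells, so its values rest on few UMIs. Slc6a19 was lower in bearing cells of libraries 1 to 5, at 61.2, 75.3, 118, 58.5 and 23.9 CPM against 115, 157, 183, 112 and 115 in free cells. The standardised difference was smaller, 1.33-fold lower (log2 -0.41), and within S1 cells of library 3 the levels were 226 and 268 CPM. Slc7a8 was also lower in each library, at 29.6, 46.4, 90.6, 52.6 and 17.9 CPM against 70.7, 96.2, 141, 113 and 58.1, and 1.28-fold lower when standardised (log2 -0.35). Without library 3 these became the genes past 1.5-fold in the pooled comparison, at log2 -0.93 for Slc6a19 and -0.95 for Slc7a8, and Slc7a13 no longer was. By segment over pooled libraries, Slc7a8 had log2 ratios of -0.32 in S1 (-0.42 to -0.22), 0.13 in S2, -0.06 in S3 and 0.03 between segments, and the intervals of the last 3 include 0.

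Slc6a18 went the other way and was higher in bearing cells of libraries 1 to 5, at 299, 215, 197, 220 and 383 CPM against 232, 169, 119, 149 and 193 in free cells. Its standardised level was 1.24-fold higher (log2 0.31). The ratio was largest in S1, where Slc6a18 is otherwise low, at 62.2 against 31.5 CPM (log2 0.98, 0.80 to 1.16), and it was 0.38 in S2 and 0.22 in S3. Within library 3 it was 0.69 in S1 (67 against 41.5 CPM) and -0.00 in S3. Slc3a1 was higher in each library too, with log2 ratios from 0.16 to 0.91, although its pooled ratio was -0.06 and its standardised ratio 0.13. Slc6a20b was lower in each library, with log2 ratios of -0.41 to -0.11, and stood at -0.24 when standardised. Slc7a7 and Slc7a9 were also lower in each library, from -1.42 to -0.16 and from -1.16 to -0.02. Slc3a2, Slc7a7, Slc7a9 and Slc1a1 lay within -0.10 to 0.06 when standardised.

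With at least 2 Havcr1 UMIs required (913 cells), 4 genes were at least 1.5-fold lower than in free cells in the pooled comparison, against 4.72% of all genes, and 0 were higher, against 4.98%: Slc7a13 (log2 -1.90), Slc6a19 (-0.80), Slc7a8 (-0.79) and Slc6a20b (-0.76). Slc6a18 stood at 0.42. In cells thinned to 1000 UMIs, Slc6a18 had 159, 183 and 212 CPM with 0, 1 and at least 2 Havcr1 UMIs, but the last group held 66 cells and 14 Slc6a18 UMIs. Libraries were pooled in these grades as well.

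Between libraries, 2 of the 10 genes spanned at least 2-fold in proximal tubule cells, against 17% of 7422 genes and a median span of 1.48-fold. Slc7a13 had by far the wider span, at 608, 467, 33.9, 180 and 742 CPM in libraries 1 to 5, a 21.9-fold range. Library 3 was lowest and library 5 highest. By segment, Slc7a13 spanned 14.5-fold within S1, 7.32-fold within S2 and 7.26-fold within S3. Library 3 had the lowest level in each segment, with 3.94, 67.6 and 182 CPM. Without library 3 the remaining libraries ran from 180 to 742 CPM, and Slc7a13 was then the 1 gene spanning 2-fold.

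Slc7a8 had 69.4, 92.1, 128, 109 and 57.8 CPM in libraries 1 to 5, a 2.22-fold range with library 3 at the top. Within S1 cells its range was 1.33-fold and library 3 was at the bottom (220 CPM), so the order in S1 was not that of all cells. Slc7a8 no longer spanned 2-fold without library 3 or without library 5. The other 8 genes spanned 1.48-fold to 1.77-fold. Slc6a20b (95.3), Slc3a1 (154), Slc6a18 (138) and Slc1a1 (127 CPM) were lowest in library 3, which had the fewest S3 cells, and Slc3a2 was highest in library 4 (291 CPM against 169 to 177 elsewhere). Within S1 cells Slc3a2 had 400, 343, 238, 406 and 410 CPM in libraries 1 to 5, so library 4 did not stand apart there. Within S2 and S3 library 4 was highest, at 235 and 172 CPM.

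**Figure D4:**
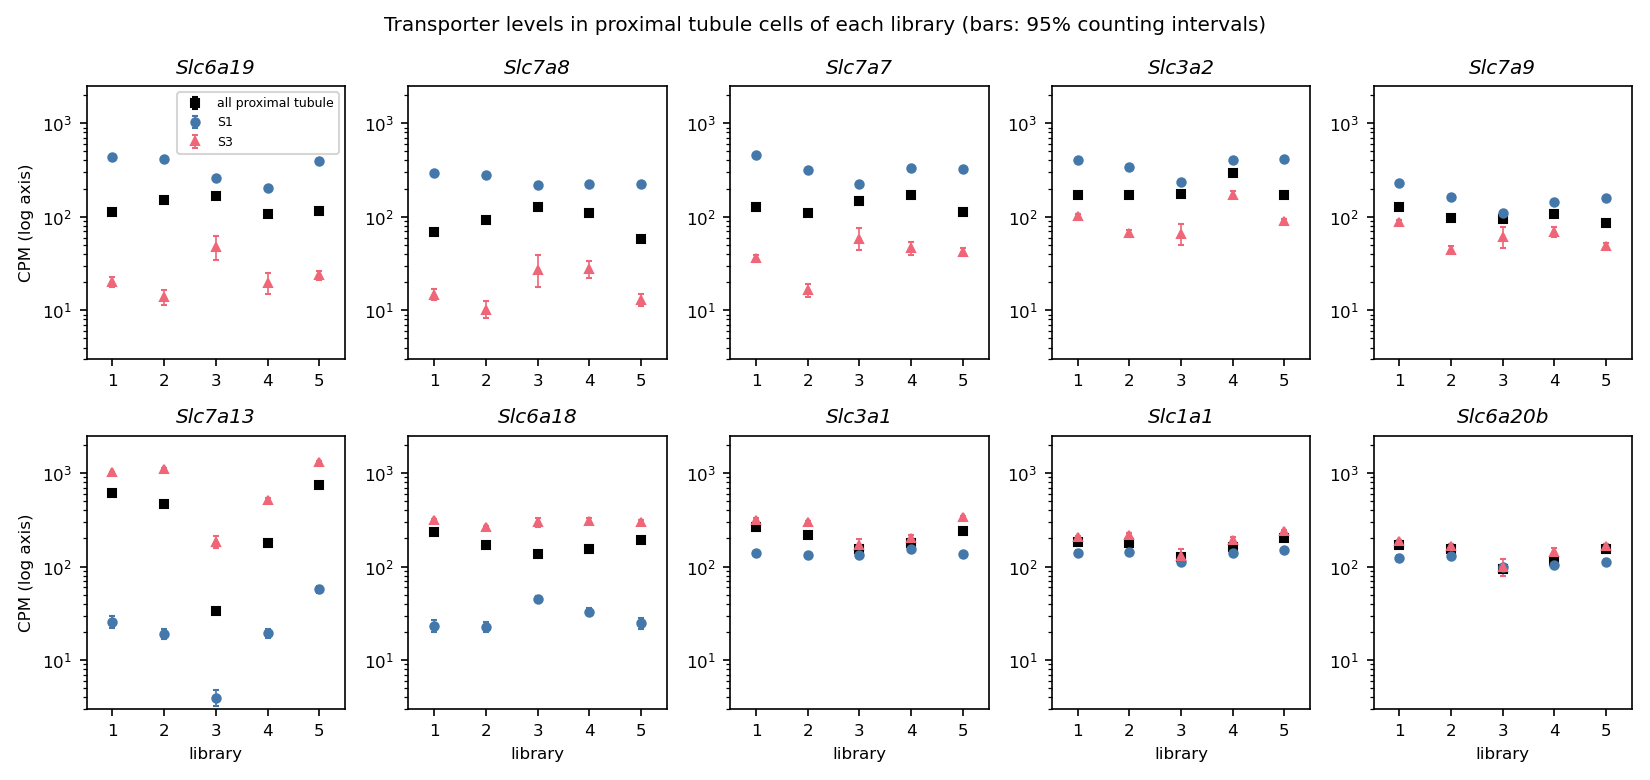
Level of each transporter gene in proximal tubule cells of libraries 1 to 5, in CPM on a log axis, for all proximal tubule cells (black), S1 cells (blue) and S3 cells (red), with 95% counting intervals. Slc7a13 shows the widest spread, with library 3 lowest in each series (33.9, 3.94 and 182 CPM), and the S1 and S3 levels of Slc6a20b meet in library 3 (98.8 and 98.2 CPM).

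Holding the segment fixed changed which genes differed. Within S1, 5 of the 10 genes spanned at least 2-fold, against 13.5% of all genes tested: Slc7a13, Slc6a19 (2.11-fold), Slc7a9 (2.08-fold), Slc7a7 (2.01-fold) and Slc6a18 (2.01-fold). Within S2, 2 did, Slc7a13 and Slc7a8 (2.03-fold), against 17.5%. Within S3, 6 did, against 25%, and for 5 of these the lowest or highest value was that of library 3 with its 190 S3 cells. In S1, library 3 was lowest for Slc7a9 (110 CPM against 145 to 229) and Slc7a7 (226 against 314 to 455), while Slc6a18 was highest there (45.3 against 22.5 to 33). Library 4 was lowest for Slc6a19 (205 CPM against 262 to 431). Library and group cannot be told apart here, and no order in time can be read from the library numbers.

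Of 29 other amino acid transporter genes, 11 were high enough to compare between S1 and S3. At least 1.5-fold higher in S1 were 5 and in S3 were 4, against 16.8% and 8.68% of all genes tested. The highest in proximal tubule cells were the taurine carrier gene Slc6a6 (237 CPM), the creatine carrier gene Slc6a8 (93.2 CPM) and the GABA and taurine carrier gene Slc6a13 (92.3 CPM). Slc6a6 had its highest level outside the proximal tubule, at 1211 CPM in endothelial cells. Pooled over libraries, 1 of 11 was at least 1.5-fold higher in Havcr1-bearing cells and 0 lower, against 3.23% and 2.05% of all genes. When standardised, 0 of 12 passed either way, against 0.945% higher and 0.175% lower, and their median log2 ratio was 0.15. Among genes with at least 10 UMIs in both bearing and free cells, the widest ratios were in genes of very low level: the cationic carrier gene Slc7a1 (2.69 against 0.791 CPM, log2 1.77), Slc1a5 (4.21 against 1.37 CPM, log2 1.62) and Slc7a5, a light chain partner of Slc3a2 (0.379 against 0.187 CPM, log2 1.02, -0.14 to 2.03). The interval of the last includes 0, and when standardised the 3 ratios were 1.44, 0.95 and 0.06.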

How the data were processed

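Single-cell suspensions of mouse kidney were sequenced with the 10x 3′ v3.1 kit. Per the submitters' processing notes, Cell Ranger 6.0 and the mm10 build were used. The authors deposited raw UMI counts of 32285 genes over 10474594 barcodes, 5 libraries merged before cells were called. No column of the table was left unmapped (0), and the labels do not say which library is which group. The counts were used as deposited, and UMIs in libraries 1 to 5 summed to 84355676, 82749027, 139382799, 82426945 and 94100876 over all barcodes.

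Cells were called per library in 2 steps after Cell Ranger (at least 10% of the 99th percentile of the top 3000 barcodes, then up to 20000 barcodes of 500 or more UMIs, in library 3 of 661 or more, that differed from free RNA at ranks 45000 to 90000, adjusted p of at most 0.01 over 10000 simulations). This gave 70164 barcodes, of which 505 with under 200 genes and 12602 with over 25% mitochondrial counts were left out, some for both. A class needed 3 markers, 5 marker UMIs and 5 times the mean share, with proximal tubule markers under 0.4 of their mean share. Cells passing as both were called mixed (1174) and 6152 had no class. Segments needed a score of at least 1 and 1.5 times the next. These cuts were set after marker UMIs had been seen. Doublets were scored by a nearest-neighbour method at 0.8% per 1000 cells and kept in the main values.

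Levels are CPM of summed counts with exact Poisson intervals, ratios have exact conditional binomial intervals, and shares Clopper-Pearson intervals. Comparisons across genes took genes of at least 10 CPM. The design has 1 sample per group and no test. The calculation was tested on simulated data. Genes named beside the transporters followed a written rule: partner genes, the 3 highest other transporters and the 3 with the widest Havcr1 ratio at 10 or more UMIs on both sides, an injury list, and the 3 genes most alike to each. The gene set and lists were chosen with earlier results of these data known. Alternatives were other cell filters, scalings, gates, depths, doublet removal, free-RNA subtraction and leaving out each library. Python 3.11.15, NumPy 2.4.6, SciPy 1.17.1, pandas 2.3.3 and matplotlib 3.10.9 were used.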

Additional observations from a re-analysis of the deposited data

How the results depend on the processing

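Beside the main processing, 22 alternatives were computed, 2 of them chosen after seeing the data (a lower cut for the proximal tubule gate, and standardising over library and segment). The number of genes higher in S1 stayed at 5 in 16 alternatives, the number higher in S3 was 4 or 5, and the number highest in the proximal tubule 8 to 10. The direction of the S1 over S3 ratio of each gene was kept in all 16, with Slc6a20b nearest to 0 (-0.80 to -0.29). The number at least 1.5-fold lower in Havcr1-bearing cells was 1 in the main comparison and 2 at no more than 10% mitochondrial counts. It was 2 without library 3, 4 at 2 or more Havcr1 UMIs and 0 when standardised. Leaving out each library gave 1 to 2. By segment over pooled libraries the number was 0 within S1, 1 within S2 (Slc7a13, log2 -1.45), 0 within S3 and 2 between segments. Of all genes tested, 1.7%, 1.48%, 2.61% and 3.14% were at least 1.5-fold lower in these 4 comparisons. Within S2 cells of library 3 alone the number was 0, against 0.676% of all genes tested. The S2 level of Slc7a13 was 67.6 CPM in library 3 and 258 to 495 CPM in the others. The number spanning 2-fold over libraries was 2 in the main comparison, and 1 at 10% mitochondrial counts, with the mean of each cell's CPM, in cells thinned to 1000 UMIs, without library 3 and without library 5 (1 to 2 over all libraries left out). The causes of these moves were not tested. Under these alternatives no ratio past 1.5-fold in the main comparison changed sign, while within single libraries the Havcr1 ratio of Slc7a13 did. The Havcr1 ratio of Slc7a8 passed 1.5-fold at 2 or more Havcr1 UMIs (log2 -0.79) and without library 3 (-0.95), and was 0.13 within S2. A segment margin of 2.5 widened the S1 over S3 log2 ratio of Slc7a8 to 4.99 and of Slc6a18 to -3.74. Free RNA made up 3.06% to 8.85% of proximal tubule UMIs by haemoglobin counts, highest in library 3, and subtracting it moved none of the counts. Levels of a few CPM in classes of under 200 cells rest on few UMIs. No paired analysis between groups was possible because each group has 1 sample and the libraries carry no replicate number. The S1 against S3 and the Havcr1 ratios could be taken within each library, and they are given without a test.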

Other observations

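The free RNA of the libraries differed in Slc7a13, at 129, 194, 17.7, 121 and 248 CPM in libraries 1 to 5, and library 3 was lowest there too.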
